A study of Mus musculus with 19 samples.

Results

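The EGF family ligands and the ErbB receptors they bind were followed in the endometrial transcriptome of mice before implantation. The set holds 10 genes of the 49089 in the deposited counts, chosen by name. It comprises the ligands amphiregulin (Areg), epiregulin (Ereg), heparin-binding EGF-like growth factor (Hbegf), betacellulin (Btc), transforming growth factor alpha (Tgfa), epidermal growth factor (Egf) and neuregulin 1 (Nrg1), and the receptors Egfr, Erbb2 and Erbb3. Each was found through its mouse gene symbol, and 9 of the 10 passed the filter of at least 3 CPM (counts scaled to a common library size) in at least 3 of the 19 libraries, while Ereg did not.

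Endometrium scraped from the myometrium of C57Bl/6 females was pooled into samples and sequenced as total RNA, in 19 libraries of 5 groups. The CONT group (3 libraries, numbered 1, 2 and 4) came from untreated virgin females at estrus, around ovulation. Per the study's methods, this tissue was taken late in the evening of the day proestrus was detected. The INT group (4 libraries) was collected on day 3.5 pc from females that had mated with intact Balb/c males, and the study's methods give 8 to 14 weeks as the age of the mated females. The SVX, SVX_VAS and VAS groups (4 libraries each) were collected on the same day from females whose Balb/c mates had undergone surgery. For these 3 groups the labels name different operations in different places (vasectomy, removal of the seminal vesicles, or both), so each group is called here by the prefix of its count columns, and which operation it stands for cannot be told. Females mated without sperm carry no embryos, and estrus and day 3.5 pc differ in hormones, mating and hour of collection at once, so these cannot be told apart. How many animals made a pool was not found, so the spread reported is that between pools.

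EGF family ligands are mostly made as membrane-anchored precursors that metalloproteases such as Adam17 cut free, and they act on neighbouring cells by pairing ErbB receptors. Areg, Egf and Tgfa bind Egfr, while Hbegf, Btc and Ereg also bind Erbb4. Nrg1 binds Erbb3 and Erbb4. Erbb2 has no known ligand of its own and serves as a partner of the other receptors, and Erbb3 has little kinase activity and signals through such partners. In the rodent uterus the family is known for its part in the exchange between blastocyst and luminal epithelium at attachment, with Hbegf in the epithelium around the blastocyst and Areg in epithelium under progesterone.

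Areg, Ereg and Btc lie in a cluster with epigen (Epgn) on mouse chromosome 5 (GRCm38). Ereg spans chr5:91074622-91093646 and Areg spans chr5:91139599-91148432, both on the plus strand, with 45952 bases and 0 other genes between them. Btc, on the minus strand at chr5:91357261-91402994, follows after another 208828 bases with 2 genes between. The receptors Egfr (chr11:16752203-16918158) and Erbb2 (chr11:98412470-98437716) share a chromosome but lie far apart, and Erbb3 is at chr10:128567523-128589652. Tgfa is at chr6:86195223-86275719, Egf at chr3:129677565-129755316 and Nrg1 at chr8:31814551-32884029. Exons of Ereg, Tgfa, Egf, Nrg1 and Erbb2 overlap an annotated gene on the opposite strand. Whether the counting used the strand is not given in the sources used here, so for these genes the reads of the partner may be part of the count.

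The 250 bases before the RefSeq start site are shown for a ligand that rose (Areg), its cluster neighbour that fell (Btc), a receptor that rose (Egfr) and a receptor that fell (Erbb2) in INT against CONT. They are RefSeq sequences of GRCm38.p6, 5′ to 3′ on the strand of the gene, and capitals mark every match, on either strand, to the cyclic AMP response element (TGACGTCA), GC box (GGGCGG), AP-1 site (TGANTCA), the letters TATAAA of a TATA box, estrogen response element (GGTCA and TGACC with 3 bases between) or progesterone response element (GAACA and TGTTC with 3 bases between).
Areg, chr5:91139349-91139598, plus strand: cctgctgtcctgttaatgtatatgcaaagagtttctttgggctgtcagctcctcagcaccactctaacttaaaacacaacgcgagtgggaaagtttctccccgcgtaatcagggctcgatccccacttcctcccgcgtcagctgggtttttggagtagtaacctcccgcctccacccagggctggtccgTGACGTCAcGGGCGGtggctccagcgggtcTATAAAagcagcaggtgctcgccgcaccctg
Btc, chr5:91402995-91403244, minus strand: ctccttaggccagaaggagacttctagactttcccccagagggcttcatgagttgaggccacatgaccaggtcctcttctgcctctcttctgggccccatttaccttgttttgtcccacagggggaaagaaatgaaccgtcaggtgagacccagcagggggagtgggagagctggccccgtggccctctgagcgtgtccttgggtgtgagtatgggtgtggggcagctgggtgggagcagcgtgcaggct
Egfr, chr11:16751953-16752202, plus strand: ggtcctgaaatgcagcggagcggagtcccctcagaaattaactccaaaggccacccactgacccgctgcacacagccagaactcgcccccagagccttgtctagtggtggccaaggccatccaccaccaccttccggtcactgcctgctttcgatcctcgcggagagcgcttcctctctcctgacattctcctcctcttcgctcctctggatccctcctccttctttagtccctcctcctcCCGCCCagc
Erbb2, chr11:98412234-98412483, plus strand: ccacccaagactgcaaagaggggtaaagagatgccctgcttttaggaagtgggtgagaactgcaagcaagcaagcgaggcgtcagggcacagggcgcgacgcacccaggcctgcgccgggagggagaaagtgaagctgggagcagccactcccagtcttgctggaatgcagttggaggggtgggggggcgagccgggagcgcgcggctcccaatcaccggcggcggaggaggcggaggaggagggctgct
The Areg window holds a cyclic AMP response element from position -61 to -54 before the start site, a GC box from -52 to -47 and a TATA box from -31 to -26. Among the 32851 RefSeq windows of this length, 1.55% hold the first of these motifs, 32.7% the GC box and 12.4% the TATA box. The Egfr window holds a GC box from -9 to -4, and none of these motifs was matched in the Btc and Erbb2 windows. Of the motifs without a match in the 4 windows, the AP-1 site is in 6.75% of all windows, the estrogen response element in 0.0639% and the progesterone response element in 0.0396%. The Erbb2 window ends at chr11:98412483, inside the gene span given above, which starts at 98412470. Sequences were matched for 6 of the 10 members (also Tgfa and Egf).

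Some libraries stood apart before any member was compared. Totals ran from 12661266 to 31781270 counts, and a count of 0 allows up to 3 counts, or 0.108 to 0.236 CPM. VAS 2 and VAS 3 had a summed level of 6 stroma markers of 1154 and 1237 CPM, against 3186 to 4877 CPM in the other libraries, and their most abundant gene had at most 27476 counts, against at least 144532 in the others. INT 1 and SVX_VAS 2 had a summed level of 5 estrogen-response genes (Ltf, C3, Muc1, Lcn2 and Greb1) of 7611 and 8212 CPM, against 9122 to 11659 CPM in CONT and 208 to 2764 CPM in the other mated libraries. In VAS 2 and VAS 3 the sum of 4 neutrophil markers was 22.4 and 31.3 CPM, against 0.944 to 11.4 CPM in the other libraries. Their red blood cell sums were 21.6 and 22.8 CPM, against 47.5 to 87.7 CPM in the other mated libraries. The defining markers of epithelium and stroma were present in every group. Values per library are CPM scaled with edgeR's TMM factors.

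In INT against CONT, 3 members rose (Areg, Egf and Egfr) and 5 fell (Hbegf, Btc, Tgfa, Erbb2 and Erbb3), so that 8 of the 9 tested members passed both cutoffs, a false discovery rate (FDR) of 0.05 or less and a 1.5-fold change in either direction, in edgeR's quasi-likelihood test. Nrg1 was not called. Areg and Egf were below 3 CPM in every CONT library and passed the filter through the mated libraries alone, so no count or median that includes them is read as a result about the set, here or in the other comparisons with CONT. In bulk tissue such as this, a change in the number of cells of the type that makes a transcript and a change of its RNA per cell cannot be told apart. Over all 17222 genes tested, 33.6% were called in this comparison. The median logFC of the 9 members was -1.01, beside -0.01 over all genes tested. The libraries of INT and CONT did not overlap for 8 of the 9 members, as for 62.3% of all genes tested. DESeq2 and limma-voom also called 8 members, with limma-voom placing Areg near the cutoff. The log2 fold changes (logFC) below are day 3.5 pc over estrus.

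Areg had the largest change of the 9 tested members. At estrus it was near the limit of detection, at 0.238, 0.108 and 0.152 CPM in CONT 1, 2 and 4, which rest on 4, 3 and 2 counts. In the INT libraries 1 to 4 it stood at 2.50, 4.41, 7.93 and 8.82 CPM. All 4 INT libraries were above all 3 CONT libraries, with INT 1 the lowest. The fitted logFC was 5.14 (SE 0.68, FDR = 2.44e-05). With limma-voom its FDR was 0.0498 in INT, 0.0462 in SVX, 0.0364 in SVX_VAS and 0.0480 in VAS against CONT. From the pooled counts, 368 against 9, Areg was 38.8-fold higher in INT (95% interval 20.2 to 85.6, which covers counting error only). Areg passed the filter through the mated groups alone, so a gene like it could hardly be tested without differing.

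Areg was raised in the other mated groups as well, and these comparisons share the CONT libraries. It stood at 4.91, 5.11, 7.75 and 4.08 CPM in SVX 1 to 4. In SVX_VAS 1 to 4 it was 6.13, 6.21, 7.38 and 6.18 CPM, the narrowest spread of the 4 mated groups. In VAS 1 to 4 it was 1.24, 4.76, 8.79 and 7.70 CPM, with VAS 1 the lowest of all 16 mated libraries yet above every CONT library. The logFC was 5.03 (SE 0.68, FDR = 1.61e-05) in SVX, 5.27 (SE 0.68, FDR = 1.54e-05) in SVX_VAS and 5.07 (SE 0.68, FDR = 1.90e-05) in VAS against CONT.

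Ereg, a low-affinity ligand and the upstream neighbour of Areg, had 0 counts in all 3 CONT libraries. It had 1, 4, 52 and 4 counts in INT 1 to 4, or 0.0756, 0.252, 2.97 and 0.280 CPM. Set against the limit of 3 counts over the whole CONT group (0.0518 CPM), its pooled level in INT was 19.3 times that limit. INT 3 held 52 of the 61 counts, and without that library Ereg was at 4.0 times the limit. In SVX it was at 7.62 times the limit, and at 3.82 times without SVX 1, which held 13 of the 21 counts. In SVX_VAS it was at 3.71 times and in VAS at 5.43 times the limit. The mated counts were taken as they stand, without their counting error or the spread between libraries. These ratios are therefore not lower bounds of the change. Every mated library had at least 1 count and no CONT library had any (exact permutation test for each of the 4 groups, two-sided p = 0.0571, the smallest that 3 against 4 libraries allow, so that 0.05 cannot be reached).

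**Figure D1:**
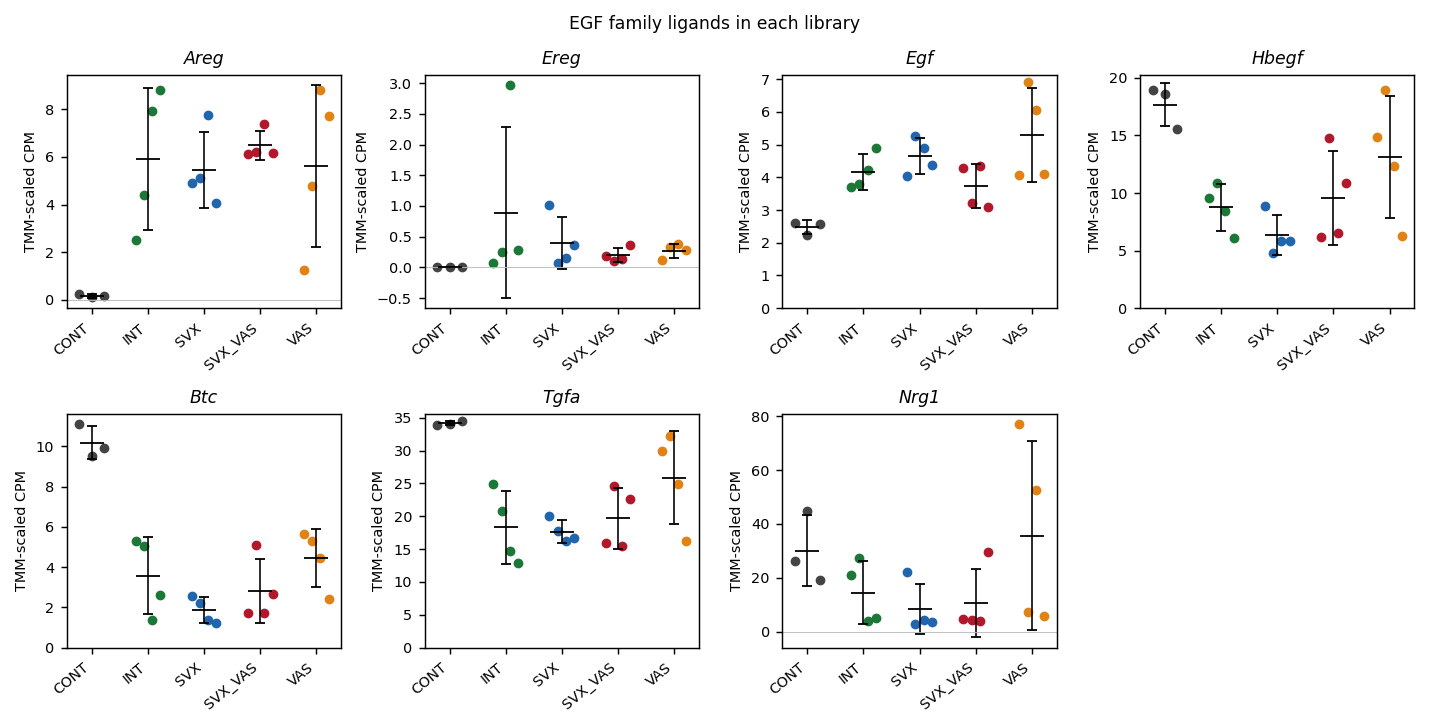
Level of the 7 ligands in each of the 19 libraries, as TMM-scaled CPM on a linear axis from each panel's own scale, by group. Points are libraries in the order of their numbers, and bars give the mean ± SD of 3 (CONT) or 4 libraries. Areg is under 0.25 CPM in CONT and from 1.24 to 8.82 CPM in the mated libraries, Btc and Tgfa are highest in CONT, and Nrg1 falls into high and low libraries within groups.

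Egf was low in all libraries and passed the filter through the mated libraries alone, as Areg did, which limits its tests against CONT in the same way. It stood at 2.62, 2.23 and 2.58 CPM in CONT and at 3.71, 3.78, 4.22 and 4.90 CPM in INT 1 to 4, with no overlap. The logFC was 0.75 (SE 0.22, FDR = 0.00905). In SVX it ranged from 4.05 to 5.27 CPM (logFC 0.91, SE 0.22, FDR = 0.00188). In VAS 1 to 4 it stood at 4.06, 6.90, 6.07 and 4.10 CPM (logFC 1.10, SE 0.22, FDR = 0.000487). The higher pair there, VAS 2 and VAS 3, are the libraries with few stroma markers. In SVX_VAS it ranged from 3.09 to 4.35 CPM, and its logFC of 0.60 (SE 0.21, FDR = 0.0268) lay just past the fold cutoff. That call was lost when any 1 of CONT 1, CONT 2, CONT 4, SVX_VAS 1 or SVX_VAS 3 was left out, with a logFC between 0.52 and 0.64 and an FDR of up to 0.0974.

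Hbegf, Btc and Tgfa were lower in INT than at estrus. Hbegf (chr18:36504929-36515805), which also binds heparan sulphate on the cell surface, stood at 18.9, 18.6 and 15.5 CPM in CONT and at 9.61, 10.9, 8.44 and 6.09 CPM in INT 1 to 4. The groups did not overlap, and the logFC was -1.01 (SE 0.35, FDR = 0.0235). The call was lost without CONT 1 (FDR = 0.0670), CONT 2 (FDR = 0.0583) or INT 4 (FDR = 0.0713).

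The surgical groups were each set against the same CONT libraries for Hbegf too. In SVX it stood at 8.88, 4.80, 5.85 and 5.87 CPM (logFC -1.48, SE 0.35, FDR = 0.00181). In SVX_VAS it stood at 6.18, 14.8, 6.53 and 10.9 CPM, with SVX_VAS 2 just under the lowest CONT library, though above it with CPM from plain totals (14.1 against 13.2 CPM). The logFC there was -0.88 (SE 0.35, FDR = 0.0407), and the call was lost with any 1 of CONT 1, CONT 2, CONT 4, SVX_VAS 1, SVX_VAS 3 or SVX_VAS 4 left out (FDR of up to 0.113). In VAS it stood at 14.8, 18.9, 12.3 and 6.28 CPM, which overlapped CONT, and it was not called (logFC -0.43, SE 0.34, FDR = 0.294).

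Btc stood at 11.1, 9.51 and 9.93 CPM in CONT and at 5.29, 5.04, 1.37 and 2.59 CPM in INT 1 to 4. INT 1 and INT 2 were the higher pair but below every CONT library, and the logFC was -1.51 (SE 0.45, FDR = 0.0116). In SVX it was lowest, at 2.57, 2.20, 1.39 and 1.22 CPM (logFC -2.46, SE 0.47, FDR = 0.000317). Every SVX library was below 3 CPM, so Btc passed the filter through libraries of other groups, where it was higher. Its call in SVX, which is among the members counted as lower there, is therefore not read as a result. In SVX_VAS only SVX_VAS 2 was above 3 CPM, which limits the call of Btc there in the same way. Its SVX_VAS levels ranged from 1.71 CPM to the 5.10 CPM of SVX_VAS 2 (logFC -1.86, SE 0.46, FDR = 0.00275). In VAS it stood at 5.64, 5.32, 4.47 and 2.40 CPM (logFC -1.19, SE 0.45, FDR = 0.0329). The call in VAS was lost without CONT 1, CONT 2, CONT 4, VAS 3 or VAS 4 (FDR between 0.0550 and 0.0842) and without VAS 2 and VAS 3 together (logFC -1.33, FDR = 0.0571).

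Tgfa varied least of the tested members at estrus, at 33.9, 34.1 and 34.5 CPM. In INT 1 to 4 it stood at 24.9, 20.9, 14.7 and 12.8 CPM, below every CONT library (logFC -0.90, SE 0.24, FDR = 0.00563). In SVX it ranged from 16.2 to 20.02 CPM (logFC -0.95, SE 0.24, FDR = 0.00296) and in SVX_VAS from 15.5 to 24.6 CPM (logFC -0.80, SE 0.24, FDR = 0.0105). In VAS it stood at 29.9, 32.2, 25.0 and 16.2 CPM, below CONT without overlap, but it was not called (logFC -0.40, SE 0.24, FDR = 0.163). With CPM from plain totals, VAS 2 (41.3 CPM) and VAS 3 (33.0 CPM) were above every CONT library (28.5 to 29.9 CPM), so the groups overlapped on that scale, and the mean was 29.9 CPM in VAS against 29.3 CPM in CONT.

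The receptors changed in opposite directions. Egfr stood at 149, 199 and 168 CPM in CONT and at 236, 227, 321 and 324 CPM in INT 1 to 4, with no overlap (logFC 0.69, SE 0.19, FDR = 0.00653). Without INT 3 its logFC of 0.58 fell short of the fold cutoff (FDR = 0.0275). In SVX it stood at 266, 312, 307 and 305 CPM (logFC 0.79, SE 0.19, FDR = 0.00192), and in SVX_VAS it ranged from 270.4 to 323 CPM (logFC 0.80, SE 0.19, FDR = 0.00198). In VAS it stood at 172, 247, 220.0 and 331 CPM, with VAS 1 inside the CONT range. There it had an FDR of 0.0323 in edgeR's test and a logFC of 0.50 (SE 0.19), under the fold cutoff, which it passed without CONT 2 (logFC 0.61) or VAS 1 (logFC 0.63).

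Erbb2 and Erbb3 fell together. Erbb2 stood at 219, 195 and 224 CPM in CONT and at 93.9, 94.5, 57.3 and 62.9 CPM in INT 1 to 4 (logFC -1.46, SE 0.24, FDR = 0.000153). Erbb3 stood at 334, 283 and 334 CPM in CONT and at 135, 131, 79.9 and 80.2 CPM in INT 1 to 4 (logFC -1.57, SE 0.36, FDR = 0.00179). No INT library overlapped a CONT library for either gene, and INT 1 and INT 2 were the higher pair for both.

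The same receptors were lower than at estrus in every surgical group. In SVX, Erbb2 ranged from 53.7 to 63.9 CPM (logFC -1.83, SE 0.24, FDR = 1.41e-05) and Erbb3 from 59.6 to 78.7 CPM (logFC -2.17, SE 0.36, FDR = 9.93e-05). In SVX_VAS, the library SVX_VAS 2 was highest for both, at 113 CPM for Erbb2 and 195 CPM for Erbb3, while the other libraries lay between 52.5 and 74.5 CPM and between 62.7 and 76.9 CPM. The logFC there was -1.46 (SE 0.24, FDR = 0.000119) for Erbb2 and -1.67 (SE 0.36, FDR = 0.000947) for Erbb3. In VAS the logFC was -1.26 (SE 0.24, FDR = 0.000384) for Erbb2 and -1.44 (SE 0.36, FDR = 0.00268) for Erbb3.

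**Figure D2:**
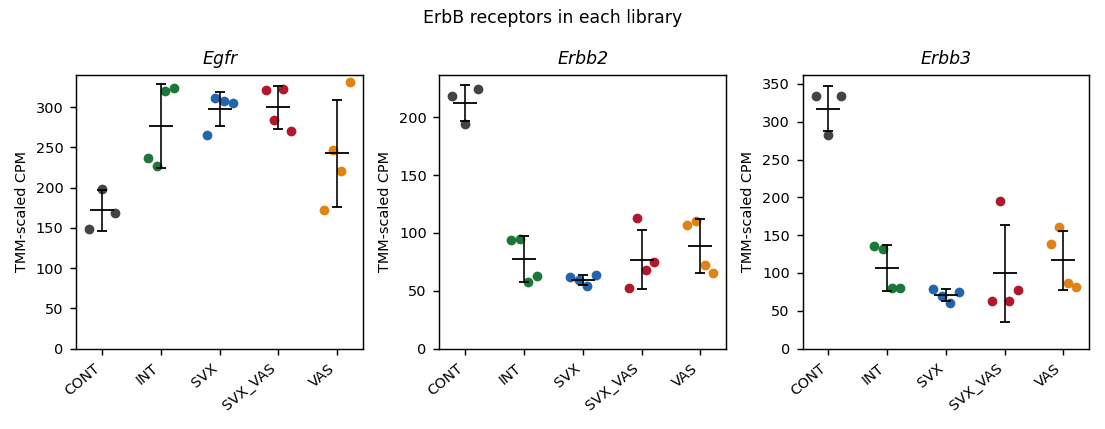
Level of the 3 receptors in each library, as TMM-scaled CPM on axes that start at 0, by group. Points are libraries and bars give the mean ± SD of 3 (CONT) or 4 libraries. Egfr has its lowest mean in CONT (149 to 199 CPM), and VAS 1 (172 CPM) lies inside that range. All mated libraries lie below the CONT range for Erbb2 (195 to 224 CPM) and Erbb3 (283 to 334 CPM).

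Levels per kilobase of exon put the members on a common scale. The length used is that of a gene's annotated exons (1215 bases for Areg, 11326 for Egfr), not of the transcript made. Orders between genes, here and for the ligands, therefore depend on the annotation. Reads of opposite-strand partners may also be part of the levels of Ereg, Tgfa, Egf, Nrg1 and Erbb2. At estrus, Erbb3 stood at 52.7 ± 4.95, Erbb2 at 40.8 ± 3.02 and Egfr at 15.2 ± 2.23 CPM per kb (SD, n = 3), with no overlap between neighbours in that order. In INT the order was Egfr at 24.4 ± 4.63, Erbb3 at 17.7 ± 5.11 and Erbb2 at 14.8 ± 3.80 CPM per kb (SD, n = 4), and neighbours overlapped. Egfr had the highest mean per kb of the 3 receptors in all 4 mated groups. In SVX all its libraries were above those of Erbb3, but in INT, SVX_VAS and VAS they overlapped, and Erbb3 was above Egfr within INT 1, INT 2, SVX_VAS 2 (32.5 against 25.1 CPM per kb), VAS 1 and VAS 2.

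Among the ligands at estrus, Hbegf was highest at 7.45 ± 0.78 CPM per kb, then Tgfa at 5.26 ± 0.048, and Nrg1 (2.90 ± 1.27) overlapped Btc (2.25 ± 0.184). Egf (0.219 ± 0.019), Areg (0.136 ± 0.054) and Ereg (0) followed without overlap (SD, n = 3). In INT, Areg was highest at 4.87 ± 2.44 CPM per kb and Hbegf next at 3.69 ± 0.86 (SD, n = 4), but every neighbour in the INT order overlapped. In SVX the 4 Areg libraries (mean 4.50 ± 1.31 CPM per kb) were above every Tgfa library (2.72 ± 0.27), but overlapped Hbegf, which reached 3.74 CPM per kb in SVX 1 against 3.36 for Areg in SVX 4. In VAS, Hbegf (5.52 ± 2.23 CPM per kb) and Areg (4.63 ± 2.78) overlapped at the top.

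Many markers of other features of the tissue changed alongside these results, though not all. The summed level of 6 epithelial markers (Krt8, Krt18, Krt19, Krt7, Epcam and Cdh1) was 3690 to 5083 CPM in CONT, 598 to 2456 CPM in INT, 666 to 980 CPM in SVX, 766 to 1795 CPM in SVX_VAS and 471 to 2143 CPM in VAS, and 5 of the 6 were lower in INT against CONT in edgeR's test. INT 1 and INT 2, the higher pair for Btc, Erbb2 and Erbb3, had 2456 and 2058 CPM of these markers, against 598 and 845 CPM in INT 3 and INT 4. SVX_VAS 2, the highest of its group for Hbegf, Btc, Tgfa, Erbb2 and Erbb3, also had the highest epithelial (1795 CPM) and estrogen-response (8212 CPM) sums of its group. In VAS the order differed, since VAS 2, the highest of its group for Hbegf, Tgfa, Erbb2 and Erbb3 (161 CPM), had an epithelial sum of 590 CPM, while VAS 1 had 2143 CPM of these markers and 138 CPM of Erbb3. All 4 endothelial markers, 3 of 4 gland markers, 4 of 6 stroma markers and 4 of 5 progesterone-response genes were higher in INT, as were all 4 tested T and NK cell markers, 4 of 5 macrophage markers (the fifth was lower), 2 of 3 red blood cell markers and 1 of 5 smooth muscle markers. The 1 tested neutrophil marker and 2 of 5 estrogen-response genes were lower. None of the 4 proliferation markers or the 2 tested mesothelium and fat markers was called. Some markers were near 0 at estrus, with a summed T and NK cell level of 3.86 to 11.1 CPM in CONT. Cxcl15 (gland) and Calca (progesterone response) had CONT means of 0.467 and 0.0612 CPM. Markers this low passed the filter through the mated libraries, so the counts of higher markers are not read as a result. Over all genes tested, 20.9% were called higher and 12.7% lower. The part of any of these in the members' changes was not tested.

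**Figure D3:**
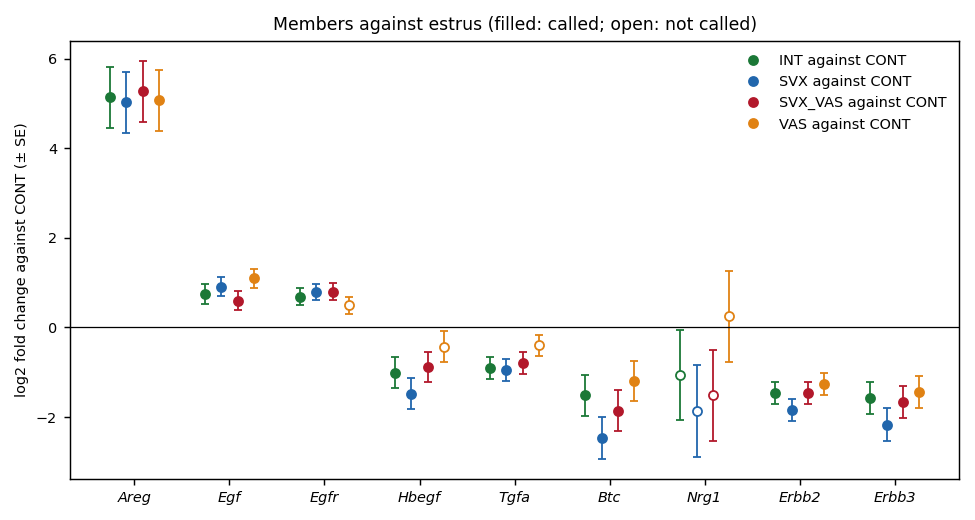
Log2 fold change against CONT with its SE, from edgeR's quasi-likelihood fit of all 19 libraries, for the 9 tested members in INT, SVX, SVX_VAS and VAS. Filled points passed both cutoffs and open points did not. Areg lies between 5.03 and 5.27 in all 4 comparisons, which share the CONT libraries, while Nrg1 is open in all of them and Hbegf, Tgfa and Egfr are open in VAS.

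The other comparisons with CONT gave the following counts. In SVX against CONT, 3 rose and 5 fell of 9 tested, with 41.6% of all genes called and 70.9% without overlap. In SVX_VAS against CONT, 3 rose and 5 fell, with 38.6% of all genes called and 67.5% without overlap. In both comparisons 8 members did not overlap. In VAS against CONT, 2 rose (Areg and Egf) and 3 fell (Btc, Erbb2 and Erbb3), with 40.6% of all genes called. There 6 members did not overlap with CONT, as for 55.0% of all genes. The median logFC of the members was -1.48 in SVX, -0.88 in SVX_VAS and -0.40 in VAS, beside -0.01, -0.02 and -0.07 over all genes.

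Nrg1, the ligand of Erbb3, was called in none of the comparisons, and its mated libraries were the most uneven of the tested members. It stood at 26.1, 44.6 and 19.3 CPM in CONT. In INT 1 to 4 it stood at 21.1, 27.4, 4.05 and 5.04 CPM, so that INT 1 and INT 2 lay within the CONT range and the others below it (logFC -1.06, SE 1.01, FDR = 0.415). In SVX 1 to 4 it stood at 22.1, 2.91, 4.46 and 3.37 CPM (logFC -1.87, SE 1.02, FDR = 0.132). In SVX_VAS 1 to 4 it stood at 4.73, 4.16, 3.96 and 29.4 CPM (logFC -1.52, SE 1.01, FDR = 0.224). In VAS 1 to 4 it stood at 76.9, 7.32, 52.5 and 5.79 CPM, with VAS 1 and VAS 3 above every CONT library (logFC 0.25, SE 1.01, FDR = 0.845).

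A single library decided the call of Nrg1 in 2 comparisons. Without SVX 1, its logFC in SVX against CONT was -3.06 (FDR = 0.0269), and without SVX_VAS 4, its logFC in SVX_VAS against CONT was -2.81 (FDR = 0.0365). In SVX against CONT it was also called when the fit held only these 2 groups (FDR = 0.0308). Among the 16 mated libraries, 6 lay between 21.1 and 76.9 CPM and 10 between 2.91 and 7.32 CPM, a 26.4-fold range. By comparison, Areg spanned a 7.11-fold range and Egfr a 1.93-fold range over these libraries.

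In each of the 4 mated groups, the library with the highest Nrg1 was also the one with the lowest Egfr. These were INT 2 (27.4 CPM of Nrg1 and 227 CPM of Egfr), SVX 1 (22.1 and 266 CPM), SVX_VAS 4 (29.4 and 270.4 CPM) and VAS 1 (76.9 and 172 CPM). In CONT, Nrg1 was highest in CONT 2 and Egfr lowest in CONT 1. This pattern was noticed in the values and was not tested. Marker sums were also set side by side for the 6 mated libraries with Nrg1 above 10 CPM and the 10 below. This split was drawn from the Nrg1 values themselves, and each sum had exceptions. The estrogen-response sum was 536 to 7611 CPM in the 6, and 208 to 265 CPM in 8 of the 10, with VAS 2 (873 CPM) and SVX_VAS 2 (8212 CPM) as the exceptions. The endothelial sum was 339 to 588 CPM in the 6 and 642 to 728 CPM in the same 8, with 405 CPM in VAS 2 and 503 CPM in SVX_VAS 2. The epithelial sum was 980.1 to 2456 CPM in 5 of the 6 (471 CPM in VAS 3) and 590 to 845 CPM in 9 of the 10 (1795 CPM in SVX_VAS 2). Their part in the level of Nrg1 was not tested.

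**Figure D4:**
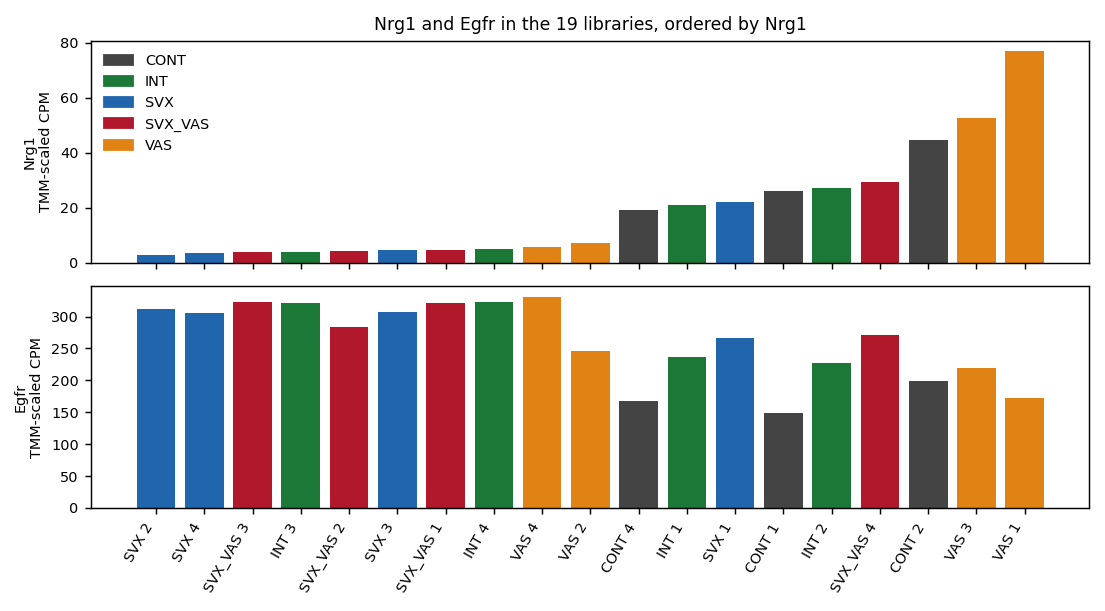
Nrg1 (upper panel) and Egfr (lower panel) in each of the 19 libraries, as TMM-scaled CPM on axes that start at 0, with libraries ordered by their Nrg1 level and coloured by group. The 10 mated libraries at the left have 2.91 to 7.32 CPM of Nrg1, and the 6 mated libraries among the CONT libraries at the right have 21.1 to 76.9 CPM.

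No member was called between a surgical group and INT, which serves as the shared control of these 3 comparisons. In SVX, SVX_VAS and VAS against INT, edgeR called 0 of the 9 tested members and 0% of all genes. At an unadjusted p under 0.05 there was 1 member in SVX (Btc, logFC -0.95, SE 0.44, unadjusted p = 0.0468 and FDR = 0.9997), 0 in SVX_VAS and 1 in VAS (Tgfa, logFC 0.50, SE 0.22, unadjusted p = 0.0413 and FDR = 0.452). Of all 17222 genes tested, 749 in SVX, 339 in SVX_VAS and 1831 in VAS had an unadjusted p under 0.05 in edgeR's test. DESeq2 and limma-voom also called 0 members in each. Over all genes, DESeq2 called 3, 2 and 0, and limma-voom called 0, 0 and 1663. In VAS against INT, edgeR called 576 genes without VAS 1 and 134 without VAS 4, and still 0 members. The SVX and INT libraries did not overlap for 1 member, Erbb3 (logFC -0.59, SE 0.33), as for 2.60% of all genes. In the other comparisons with INT 0 members were without overlap, beside 1.75% of all genes for SVX_VAS and 1.23% for VAS.

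The differences from INT were within their errors for Areg, the tested member that rose most, and for Egfr in SVX and SVX_VAS. Areg differed by a logFC of -0.12 (SE 0.46) in SVX, 0.13 (SE 0.46) in SVX_VAS and -0.08 (SE 0.46) in VAS. Egfr differed by 0.10 (SE 0.17), 0.11 (SE 0.17) and -0.19 (SE 0.17) on the same scale. Nrg1 had the widest error, with 1.31 (SE 0.95) in VAS, which was 0.61 without VAS 1 and 1.83 without INT 2 and called in neither case.

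Other genes of the pathway were taken from a list of 56, of which 54 were tested. In INT against CONT, 7 were higher, 8 were lower and 39 were not called, beside 20.9% of all genes called higher and 12.7% called lower. The median logFC of the list was -0.13. In SVX, SVX_VAS and VAS against CONT, 7, 7 and 6 were higher and 13, 10 and 11 were lower, beside 23.1%, 22.2% and 23.3% of all genes called higher and 18.5%, 16.5% and 17.3% called lower.

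Of the other receptor and ligands, Erbb4, which binds neuregulins, stood at 5.58 ± 4.35 CPM in CONT (SD, n = 3) and 0.519 ± 0.561 CPM in INT (SD, n = 4), with no overlap, but was not called (logFC -3.42, SE 1.504, FDR = 0.0714). It was called in SVX against CONT (logFC -4.97, SE 1.71, FDR = 0.0202) but not in SVX_VAS (logFC -1.81, SE 1.38, FDR = 0.288) or VAS (logFC -1.88, SE 1.38, FDR = 0.253), where it overlapped CONT. With means of 0.519 CPM in INT and 0.171 CPM in SVX, Erbb4 passed the filter through libraries of other groups, where it was higher. A gene like it could hardly be tested without differing. Its call in SVX, which is among the 13 lower there, is therefore not read as a result. Nrg2 and Nrg4 were not called in INT, and Epgn and Nrg3 did not pass the filter. Of 8 genes of ligand shedding, 2 were higher and 3 lower in INT. Adam19, a metalloprotease, had the largest rise (64.2 ± 11.1 against 24.8 ± 3.77 CPM, logFC 1.37, FDR = 5.01e-05), and Cd9, a tetraspanin that associates with the Hbegf precursor, had the largest fall (132 ± 33.1 against 219.7 ± 40.8 CPM, logFC -0.73, FDR = 0.0458).

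Of 9 inhibitors acting on the receptors, 2 were higher and 1 lower. Lrig1, a transmembrane protein that lowers ErbB receptor levels, fell from 482 ± 34.7 to 165 ± 93.9 CPM (logFC -1.55, SE 0.47, FDR = 0.0122), while its relative Lrig3 rose (logFC 1.05, SE 0.12, FDR = 6.72e-06). Of 19 adaptors and kinases, 1 was higher (Gab1, a docking protein, logFC 0.63, FDR = 0.00717) and 1 lower (Map2k1, which activates the ERK kinases, logFC -1.11, FDR = 0.000116). Of 7 feedback inhibitors, 2 were lower and the other 5 were not called, with the largest fall in Spred2 (logFC -1.05, FDR = 0.000747). Of 8 target genes of the pathway, 2 were higher and 1 lower, with the largest rise in Myc (logFC 1.79, FDR = 5.23e-05) and the fall in Fos (logFC -1.13, FDR = 0.0165). Each of these roles held genes that were not called, from 3 of the 8 shedding genes to 17 of the 19 adaptors and kinases.

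**Figure D5:**
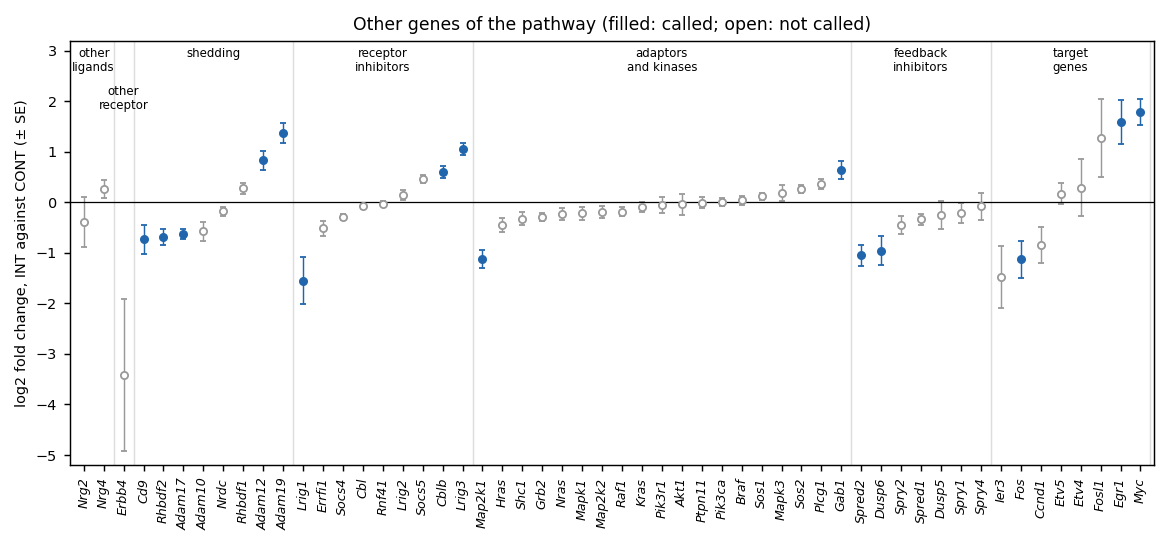
Log2 fold change in INT against CONT with its SE for the 54 tested genes of the pathway outside the members, grouped by role and ordered by size within a role. Filled blue points passed both cutoffs (7 higher, 8 lower) and open grey points did not (39). Called genes point in both directions among the shedding genes, receptor inhibitors, adaptors and kinases, and target genes.

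Genes whose log2 CPM followed a member most closely over the 19 libraries were ranked by Pearson's r, as a description across libraries that share groups and depth. Areg was followed by Hspa12b (r = 0.978), Scin (r = 0.976) and Rtn1 (r = 0.975), and Nrg1 by Tmem200a (r = 0.978), Col6a6 (r = 0.970) and Mug1 (r = 0.958). Hbegf was followed by Lrp5 (r = 0.972), Tiam1 and Pard6b, Tgfa by Plek2 (r = 0.952), Elovl7 and Specc1, and Btc by 1700025G04Rik (r = 0.976), Gm10451 and Plch2. Egf was followed by Spata7 (r = 0.956), Slc35d2 and 5430403G16Rik, and Egfr by Zfyve21 (r = 0.969), Bbx and Rhoj. Erbb2 was followed by Acvr1b (r = 0.987), Sema4b and Rgl3, and Erbb3 by Rab11fip1 (r = 0.989), Trp53bp2 and Rgl3, so that Rgl3 was among the first 3 for both.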

How the data were processed

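Endometrial RNA of pooled mice was sequenced in 19 libraries. Per the study's methods, the authors prepared stranded total RNA libraries, read them from both ends, checked them with FastQC, trimmed adapters with AdapterRemoval version 2, aligned reads to GRCm38 with STAR, and deposited raw counts per gene from featureCounts. The strand setting, and the other tools' versions, were not given in the sources used here.

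Symbols and positions came from GENCODE. The members and lists (56 pathway genes and 13 marker lists with 60 genes) were chosen with earlier results of these data known. Counts were scaled by TMM and tested in R 4.3.3 with edgeR 4.0.16 (glmQLFit, glmQLFTest, all 5 groups in 1 fit, no replicate block) on the 17222 genes that reached 3 CPM in 3 or more libraries. Calls needed a Benjamini-Hochberg FDR of 0.05 or less over all tested genes and a 1.5-fold change. The SE is the logFC divided by the square root of F. Log2 CPM used a prior count of 2. Named were all members, the genes with the largest rise and fall among those called in INT against CONT in each pathway role, and the 3 genes most alike each tested member. Outside this rule, Erbb4, Nrg2, Nrg4, Epgn and Nrg3 were named after their values were seen. The fit was also run on counts simulated from its own estimates of level and spread. Such a run checks that the fit works, and cannot show that its assumptions hold for these libraries.

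Alternatives were DESeq2 1.42.0, its size factors in edgeR, limma-voom (limma 3.58.1), other filters, FDR alone, only the 2 compared groups, CPM from plain totals, a replicate block and each library left out. Leaving out VAS 2 and VAS 3, or INT 1 and SVX_VAS 2, was chosen after seeing the data. Totals per library were 12661266 to 31781270 counts. Intervals and floors cover counting error only. Promoter windows were read from RefSeq, and figures were drawn with Python 3.11.15 and matplotlib 3.10.9.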

Additional observations from a re-analysis of the deposited data

Results flagged for a closer look

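In 40 groups of 4 libraries, 1 for each of the 10 members in each mated group, the gap of the extreme library to its nearest neighbour was compared with Dixon's critical value. It was exceeded in 3, and chance gives about 1 in 20, or 2 of 40. Egfr in SVX 1 was 266 CPM, below the other SVX libraries at 305 to 312 CPM. Areg in SVX_VAS 3 was 7.38 CPM, above the others at 6.13 to 6.21 CPM. Nrg1 in SVX_VAS 4 was 29.4 CPM, above the others at 3.96 to 4.73 CPM.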

How the results depend on the processing

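The number of called members stayed within 1.5 times in every alternative run. With each library left out in turn it ran from 7 to 8 in INT, 8 to 9 in SVX, 6 to 8 in SVX_VAS and 4 to 6 in VAS against CONT, and was 0 against INT. With the replicate block it fell from 8 to 7 in SVX_VAS against CONT (Egf, logFC 0.55, FDR = 0.0570) and no other call changed; of 36 same-numbered pairs only 15 correlated above 0.1 (median r 0.05, other numbers -0.03), so the numbers were not taken as pairs. Without a filter Hbegf (FDR = 0.0562) and Egf (FDR = 0.0591) in SVX_VAS were not called, nor was Egf there with filterByExpr (logFC 0.56). Ereg, which the filter leaves out, was then tested and called in INT (FDR = 0.00856) and SVX (FDR = 0.0359) against CONT, not in SVX_VAS (FDR = 0.113) or VAS (FDR = 0.0619). Over all genes, calls against INT were 0 with edgeR, 3, 2 and 0 with DESeq2, and 0, 0 and 1663 with limma-voom (SVX, SVX_VAS, VAS). CPM from plain totals put the median gene 0.16 to 0.28 above CONT (mean log2(CPM + 1)), beside -0.10 to -0.01 with TMM, and on that plain scale Nrg1 in VAS had another sign (-0.02) than in the fit. By mean plain CPM, Hbegf (15.3 against 15.2 CPM) and Tgfa (29.9 against 29.3 CPM) in VAS also lay above CONT, against the fit. Directions turned only where nothing was called: Nrg1 in VAS against CONT (-0.49 with limma-voom, -0.45 to 0.65 with libraries left out); in SVX against INT, Areg (4.49e-05 with the block, -0.37 to 0.14 left out) and Tgfa (0.0023 with limma-voom, 0.13 without INT 1 and SVX_VAS 2, -0.19 to 0.13 left out); in SVX_VAS against INT without INT 1 and SVX_VAS 2, Areg (-0.10), Hbegf (-0.11) and Nrg1 (0.057). With libraries left out there, Areg ran from -0.12 to 0.38, Hbegf from -0.16 to 0.29, Tgfa from -0.033 to 0.29, Nrg1 from -1.74 to 0.067, Erbb2 from -0.25 to 0.14 and Erbb3 from -0.66 to 0.068. Erbb2 in that comparison was -0.0028, and 0.0039 with DESeq2 or its size factors, 0.0017 without a filter, 0.0076 with only 2 groups and 0.0043 with the block. In VAS against INT, Egf was -0.028 without VAS 2 and VAS 3, Areg ran from -0.39 to 0.26 and Erbb3 from -0.060 to 0.27. The cause was not tested. Depth limits Areg at estrus and Ereg, which rest on few counts.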
